A study of Mus musculus with 12 samples.

Results

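The chemokine ligands of border macrophages are described here as 10 genes, Pf4, Ccl2, Ccl3, Ccl4, Ccl6, Ccl7, Ccl8, Ccl9, Ccl12 and Ccl24. They were chosen by name, are 10 of the 56735 gene names in the count table, and were read in each of the 12 libraries. All 10 passed the filter on low counts that left 13724 genes for testing. The libraries are bulk RNA-seq of sdCAMs, the CD206+ CNS-associated macrophages found below the dura in leptomeninges and around vessels, which were sorted from mouse brain freed of its choroid plexuses.

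Every mouse carried Mrc1CreERT2/CreERT2:R26tdT/tdT, a tamoxifen-inducible Cre at the gene of CD206 and a Cre-dependent tdTomato (tdT) reporter, and every mouse received tamoxifen. Treatment began 4 weeks after tamoxifen and lasted 7 days, with either vehicle or 200 mg per kg of BLZ945, an inhibitor of the CSF-1 receptor on which these macrophages depend. Cells were taken 8 weeks after the end of treatment. The 3 groups were tdT+ cells of 4 vehicle mice, tdT+ cells of 4 BLZ945 mice and tdT- cells of the same 4 BLZ945 mice, with 1 library per mouse and gate. Mice are labelled F1, F2, M1 and M2 in each treatment, and their age is not in the labels. The comparison of tdT- with tdT+ cells asks how cells without the early label differ from labelled cells in the same brain. The labelled cells lived through the treatment or descend from cells that did. The comparison of tdT+ cells between treatments asks what remained altered in labelled cells. Recombination marks cells with an active Mrc1 locus at the time of tamoxifen, so a tdT- cell may have arrived later or may have escaped recombination, and these cannot be told apart in the counts. Names of vehicle and BLZ945 libraries also differ in the words pre and Post, so that treatment and whatever these words mark cannot be told apart.

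Chemokines are small secreted proteins that direct the migration of leukocytes through G protein-coupled receptors. Ccl2, Ccl7 and Ccl12 are ligands of CCR2, the receptor that draws monocytes out of the bone marrow and into tissue. Ccl3 and Ccl4 attract monocytes and T cells, and Ccl3, Ccl6 and Ccl9 act on CCR1. Ccl8 of the mouse acts on CCR8, and Ccl24, also called eotaxin-2, attracts eosinophils through CCR3. Pf4 encodes the chemokine CXCL4, known best from platelet granules, and is also a widely used transcript marker of border-associated macrophages.

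The 10 genes lie in 3 places of the GRCm39 assembly, by the coordinates of the deposited table. Ccl2 (chromosome 11, 81926397 to 81928279), Ccl7 (81936538 to 81938351), Ccl12 (81992671 to 81994226) and Ccl8 (82006011 to 82007625) follow each other on the plus strand, and Ccl2 and Ccl7 are 8.258 kb apart. Ccl9 (83463745 to 83469462), Ccl6 (83478708 to 83483913), Ccl3 (83538670 to 83540181) and Ccl4 (83553410 to 83555509) form a group 1456.119 kb further along chromosome 11, the first 3 on the minus strand and Ccl4 on the plus strand. Pf4 (90920294 to 90921242, plus strand) and Ccl24 (135598791 to 135601903, minus strand) lie far apart on chromosome 5. The exons of Ccl3 share 266 bases with those of the predicted gene Gm53692 on the opposite strand, which held between 66 and 362 counts per library. Counting ignored strand, so reads over this stretch cannot be assigned to one of the 2 genes. No other member shared exon bases with another gene. Of the 50-base windows of the members' annotated transcripts, 1.97% of those of Ccl9 occur in transcripts of other genes, 463 in number. For the other 9 members this share was 0. Only exact matches were searched, so loss of reads to copies that differ in a base was not examined.

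The 250 bases before the annotated start are shown for Pf4 and Ccl12, the members whose levels differed in opposite directions between vehicle and BLZ945 tdT+ cells, and for Ccl8, the neighbour of Ccl12, whose level did not pass the test in any comparison. Sequences are from RefSeq on GRCm38.p6, an older assembly than that of the counts, and matched 6 of the 10 members by symbol (Ccl2, Ccl4, Ccl7 and Ccl24 were not matched). They stand at chr5:90772185-90772434, chr11:82101595-82101844 and chr11:82114935-82115184, all on the plus strand. Capitals mark matches on either strand to the TATA box TATAAA and to GAGGAA, a core bound by PU.1-type ETS factors, which specify macrophages.
Pf4: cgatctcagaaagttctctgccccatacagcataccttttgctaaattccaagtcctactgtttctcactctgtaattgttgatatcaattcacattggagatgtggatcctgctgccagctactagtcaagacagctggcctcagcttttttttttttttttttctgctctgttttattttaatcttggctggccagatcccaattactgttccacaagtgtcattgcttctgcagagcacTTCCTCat
Ccl12: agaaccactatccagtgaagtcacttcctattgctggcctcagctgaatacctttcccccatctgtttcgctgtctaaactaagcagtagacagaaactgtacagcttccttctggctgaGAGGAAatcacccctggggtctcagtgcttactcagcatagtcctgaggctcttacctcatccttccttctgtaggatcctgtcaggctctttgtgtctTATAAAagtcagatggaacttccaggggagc
Ccl8: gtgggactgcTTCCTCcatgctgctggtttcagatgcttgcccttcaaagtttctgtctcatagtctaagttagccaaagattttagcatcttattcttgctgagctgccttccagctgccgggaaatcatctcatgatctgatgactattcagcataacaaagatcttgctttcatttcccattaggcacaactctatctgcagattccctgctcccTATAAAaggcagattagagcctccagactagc
A TATAAA stood 31 bases before the start of Ccl12 and 32 bases before that of Ccl8, and no TATAAA lay in the window of Pf4. Over the 6 members with a sequence, 3 held TATAAA (Ccl8, Ccl9 and Ccl12), against 12.4% of 32851 promoter windows of the same length. GAGGAA was present in 4 of the 6 (Pf4, Ccl3, Ccl8 and Ccl12), against 23.3% of all windows. The AP-1 type letters TGANTCA (6.75% of all windows) and the NF-kB motif (1.41%) were found in Ccl9 only among the 6, and the interferon response motif (2.98%) in none. In the printed windows no match overlapped another, whereas 2 of the TATAAA matches of Ccl9 overlapped. These matches describe the letters of the windows and are not evidence of binding.

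The 12 libraries held between 19969308 and 23395058 counts. The lowest count of any member in any library was 11, for Ccl4, against a floor of 3 counts. All 10 sdCAM markers (Mrc1, Cd163, Lyve1 and others) were counted in every group, and the tdTomato entry had 0 counts over all libraries, so the reporter transcript could not check the gates. One library stood apart. In the tdT- library F2 the summed normalised count of 7 neutrophil markers was 422875, against a median of 57.5 in the tdT- group and at most 69.4 in any tdT+ library, and its summed monocyte markers (51463) and red blood cell markers (36300) were also the highest of all. Results for tdT- cells that passed a test were therefore recomputed without this library. Replicate libraries are from separate mice, and the spread between them includes biological and technical variation.

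Per unit of transcript length, the 10 genes differed widely in abundance. Levels in this paragraph are in TPM, counts divided by gene length and scaled to the same sum in every library, calculated from the deposited counts and lengths. Pf4 was highest in each group, with 8234 ± 379 TPM in vehicle tdT+ cells (SD, n = 4), 5884 ± 876 in tdT+ cells of BLZ945 mice and 3400 ± 444 in their tdT- cells, and was gene number 14, 19 and 30 of the table by mean TPM. In vehicle cells Ccl8 (1976 ± 840 TPM) and Ccl12 (1780 ± 314 TPM) followed, and their libraries overlapped. Ccl24, Ccl6 and Ccl7 formed the next step, at 597 ± 29.3, 555 ± 99.0 and 544 ± 141 TPM, with overlapping libraries. Ccl9 (152 ± 25.1 TPM) and Ccl2 (144 ± 59.3 TPM) overlapped each other as well, and Ccl4 (37.2 ± 34.9 TPM) and Ccl3 (32.8 ± 8.69 TPM) were lowest, with overlapping libraries. The 766 bases by which Ccl3 was divided include the 266 shared with Gm53692. Its TPM may therefore be too low, and its order against Ccl4 is not settled. Both BLZ945 groups had Ccl12 in second place, at 3531 ± 351 TPM in tdT+ cells and 2858 ± 828 TPM in tdT- cells. Pf4 and Ccl12 did not overlap in BLZ945 tdT+ cells, where the lowest Pf4 library had 4822 TPM and the highest Ccl12 library 3878 TPM. In tdT- cells they did overlap, since Ccl12 reached 3660 TPM and Pf4 went down to 2983 TPM. Ccl24 went from place 4 in vehicle cells to place 6 in BLZ945 tdT+ cells (398 ± 92.7 TPM) and place 8 in tdT- cells (117 ± 49.1 TPM).

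The make-up of the ligand transcripts differed accordingly. Together the 10 genes took 0.406 ± 0.0410% of all counts in vehicle cells, 0.364 ± 0.0241% in tdT+ cells of BLZ945 mice and 0.301 ± 0.0369% in tdT- cells (SD, n = 4). Of their summed TPM, Pf4 made up 58.8 ± 3.50%, 43.9 ± 3.91% and 34.1 ± 3.37% in this order of groups. Ccl12 made up 12.7 ± 2.26%, 26.5 ± 2.93% and 28.0 ± 3.92%. The share of Pf4 did not overlap between any of the 3 groups, and the share of Ccl12 in vehicle cells, at most 15.9%, lay below every library of the BLZ945 groups, at least 23.8%. The shares add up to 100%, so a lower share of Pf4 raises those of the other genes.

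**Figure D1:**
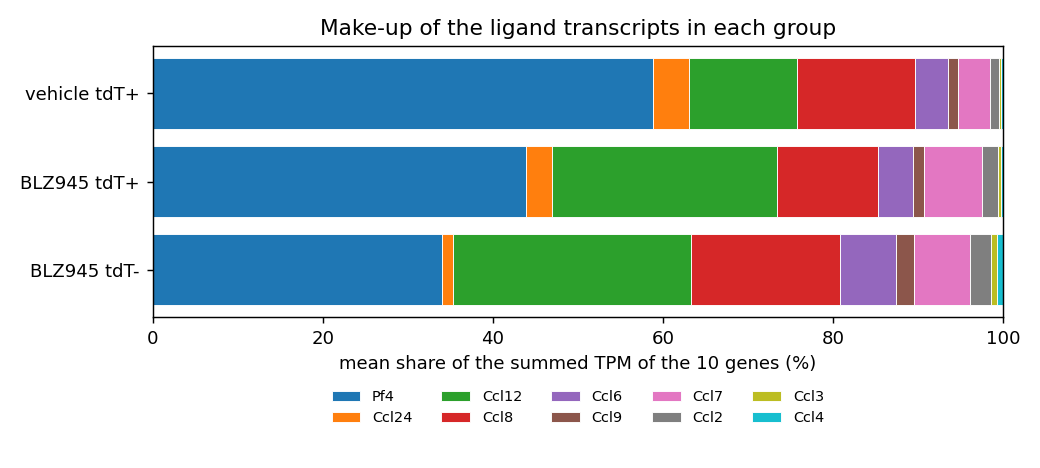
Mean share of each gene in the summed TPM of the 10 ligand genes (x axis, percent) in the 3 groups (y axis, 4 libraries each, stacked bars). Pf4 covers 58.8% of the bar in vehicle tdT+ cells and 34.1% in BLZ945 tdT- cells, and Ccl12 covers 12.7% and 28.0%.

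The following values are normalised read counts, counts divided by the DESeq2 size factor of the library, with mice in the order F1, F2, M1 and M2. Pf4 was at 46547, 41990, 44254 and 47744 in vehicle tdT+ libraries. It was at 26163, 30717, 34253 and 36756 in BLZ945 tdT+ libraries and at 19034, 17878, 20293 and 24266 in tdT- libraries. Every BLZ945 tdT+ library lay below every vehicle library and above every tdT- library. Ccl24 stood at 6060, 5580, 5631 and 6241 in vehicle cells, at 3325, 3546, 5054 and 3577 in tdT+ cells of BLZ945 mice and at 1145, 806, 2063 and 1054 in tdT- cells. Here too the 3 groups were apart, and the highest library within both BLZ945 groups was that of mouse M1. Stepwise lower levels without overlap, from vehicle tdT+ over BLZ945 tdT+ to tdT- cells, were found for these 2 members and for 25 of all 13724 genes (0.182%).

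**Figure D2:**
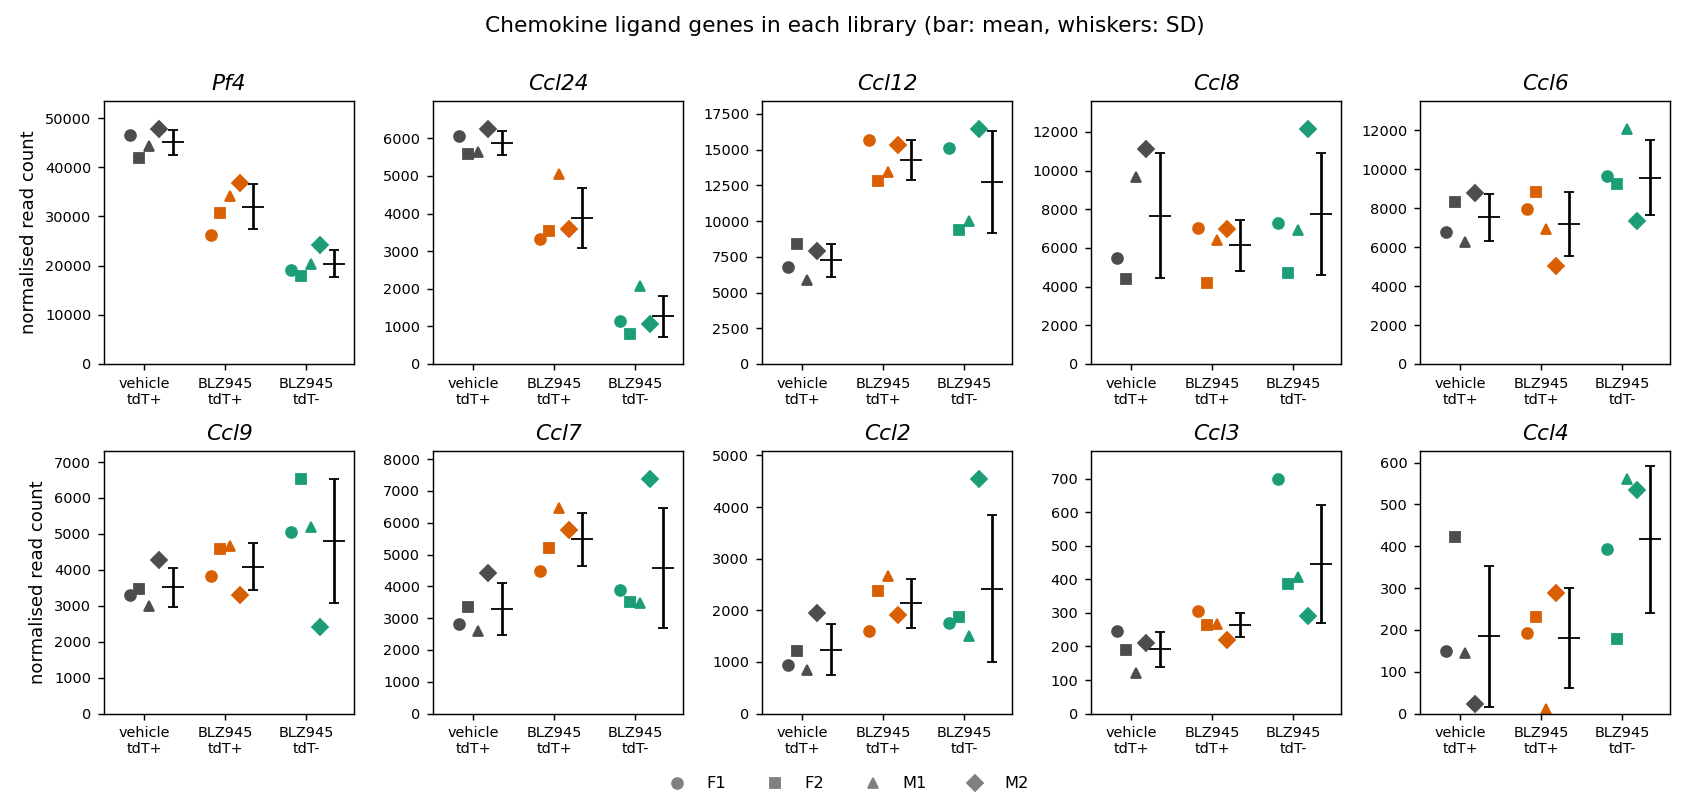
Normalised read counts (y axis, from 0) of the 10 ligand genes in the 12 libraries, by group (x axis), with 1 symbol per mouse label and the mean and SD of each group as bar and whiskers. Pf4 and Ccl24 step down without overlap from vehicle tdT+ to BLZ945 tdT+ to BLZ945 tdT- cells, and Ccl12 is above all vehicle libraries in both BLZ945 groups.

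In tdT- against tdT+ cells of BLZ945 mice, Ccl24 was the member with a call, for which the adjusted p had to be 0.05 or lower and the log2 fold change 1 or more in either direction. It fell by 1.54 ± 0.25 on the log2 scale (SE, DESeq2, adjusted p = 7.94e-09) and was lower in tdT- cells of all 4 mice. Calls were made for 1 of 10 members and for 2.25% of all genes tested. Pf4 fell by 0.61 ± 0.12 (adjusted p = 2.02e-06), again in all 4 mice, so that 2 of 10 members passed on the adjusted p alone, against 6.38% of all genes. Both also passed in the quasi-likelihood test of edgeR, as did 2.75% of all genes (adjusted p = 0.00249 for Ccl24 and 0.00707 for Pf4). Without the tdT- library F2 the changes were -1.38 for Ccl24 and -0.57 for Pf4, and both still passed. These were also the 2 members whose groups did not overlap, against 9.35% of all genes. The median shrunken log2 fold change was 0.11 over the 10 members and 0.00 over all genes tested. Above 0 were 6 of the members and 50.5% of all genes.

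Other transcripts moved with the tdT- gate. Of 10 microglia markers (P2ry12, Tmem119, Sall1 and others), 9 rose and 8 were called higher in tdT- than in BLZ945 tdT+ cells, and the same counts were found against vehicle and, in both comparisons, without the tdT- library F2. Their summed normalised count was 312426 to 614526 in tdT- libraries, 175741 to 208819 in BLZ945 tdT+ libraries and 132116 to 187305 in vehicle libraries, with no marker at 0. Of the 10 sdCAM markers, among them Mrc1 for the protein used in the sort, 8 fell between the gates. Of these, 4 were called lower (Mrc1, Cd163, Lyve1 and Folr2), and without F2 7 fell and 4 were called. In tdT- cells against vehicle 6 sdCAM markers fell and 2 were called. In BLZ945 tdT+ cells against vehicle, by contrast, 3 passed as higher, 1 of them with a call, and 0 passed as lower. The part of the microglia or sdCAM marker shifts in the lower Pf4 and Ccl24 was not tested. Within the tdT- group the highest library was M1 for the sum of microglia markers and for Ccl24, and M2 for Pf4. These are single libraries, and a relation over libraries was not tested. In bulk samples, fewer cells that express a gene and less transcript per cell cannot be told apart.

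Pf4 is also a platelet gene, and platelet and megakaryocyte markers were read beside it. These 10 markers summed to between 44.0 and 354 normalised counts in any library, and 7, 7 and 6 of them were at 0 in all libraries of the vehicle tdT+, BLZ945 tdT+ and tdT- group. Gp1ba, Gp5 and Gp6, glycoproteins of the platelet surface, were at 0 in all 12 libraries. Ppbp, a CXC chemokine of platelets, had means of 58.1, 76.4 and 21.5 normalised counts and did not pass in any comparison. Gp9, the other platelet gene that passed the filter, moved opposite to Pf4, with means of 16.9, 37.4 and 159, and was called higher in tdT- cells against vehicle (2.78 ± 0.88, adjusted p = 0.00190, edgeR adjusted p = 0.0945, and 2.38 without F2). Of the 8 eosinophil markers, 3 passed the filter and none passed the test over all libraries. Epx, Ear6 and Il5ra were at 0 in every library. Siglecf had means of 57.1, 44.5 and 248 normalised counts in vehicle tdT+, BLZ945 tdT+ and tdT- cells, with all tdT- above all BLZ945 tdT+ libraries. Alox15 had means of 144, 234 and 11.8, and without F2 passed as lower in tdT- cells (adjusted p = 2.54e-06 against BLZ945 tdT+ and 1.53e-05 against vehicle cells). The shrunken changes were then only -0.12 ± 0.34 and -0.14 ± 0.38. The other 3 tdT- libraries had 0 counts, as did 1 vehicle library. The receptor of Ccl24, Ccr3, ranged from 0 to 441 normalised counts, with 0 in 2 libraries of either BLZ945 group.

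In BLZ945 tdT+ against vehicle tdT+ cells the clearest change was that of Ccl12. It was at 6768, 8412, 5897 and 7910 normalised counts in vehicle libraries, at 15670, 12789, 13430 and 15305 in BLZ945 tdT+ libraries and at 15106, 9355, 9984 and 16424 in tdT- libraries. All libraries of both BLZ945 groups were above all vehicle libraries, and the 2 BLZ945 groups overlapped each other. Ccl12 rose by 0.91 ± 0.19 (log2, adjusted p = 2.34e-05) in tdT+ cells and by 0.75 ± 0.18 (adjusted p = 2.77e-04) in tdT- cells against vehicle, or by 0.88 without F2. Pf4 fell by 0.45 ± 0.12 in tdT+ cells (adjusted p = 0.00417). No member was called in tdT+ cells because neither change reached a log2 fold change of 1, and 0.168% of all genes were called. At an unadjusted p under 0.05, 5 members passed, against 8.08% of all genes. On the adjusted p alone 2 of 10 members passed, against 0.955% of all genes, and edgeR passed 0 members and 0.0656% of all genes, with 5 members and 6.95% of all genes at an unadjusted p under 0.05 (edgeR adjusted p = 0.152 for Ccl12 and 0.244 for Pf4). Of the members, 4 had groups that did not overlap (Ccl7 and Ccl12 higher, Pf4 and Ccl24 lower), against 6.72% of all genes.

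Ccl24 and Ccl7 depended on which libraries entered this comparison. Ccl24 changed by -0.30 ± 0.34 (adjusted p = 0.356) with shrinkage and by -0.60 ± 0.25 without it, and Ccl7 by 0.53 ± 0.30 (adjusted p = 0.164). With mouse label as a block in a fit of the 8 libraries compared, both passed (Ccl24 -0.55, adjusted p = 0.00636; Ccl7 0.66, adjusted p = 0.00321), and so they did on these 8 libraries without the block (-0.53 and 0.63). Ccl7 also passed without the vehicle library M2 (0.74, adjusted p = 0.0490). Vehicle and BLZ945 mice share the labels only and are different animals.

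In tdT- cells against vehicle, 2 of 10 members were called, both lower, against 2.55% of all genes. Ccl24 fell by 2.16 ± 0.25 (adjusted p = 8.63e-17) and Pf4 by 1.13 ± 0.12 (adjusted p = 4.88e-20), and without the tdT- library F2 by 2.01 and 1.08. On the adjusted p alone 4 members passed (Ccl24, Pf4, Ccl12 and Ccl3), against 6.76% of all genes, and edgeR passed Ccl24, Pf4 and Ccl12, against 3.25% of all genes. Those 4 were also the members without overlap between groups, against 9.70% of all genes. There were no tdT- libraries of vehicle mice, so gate and treatment cannot be told apart in this comparison. The values of this comparison and of the one before share the vehicle libraries and are not independent. The median shrunken log2 fold change was 0.29 over the members and 0.00 over all genes. Above 0 were 8 of 10 members, among them Ccl8 at 0.006, and 52.3% of all genes.

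**Figure D3:**
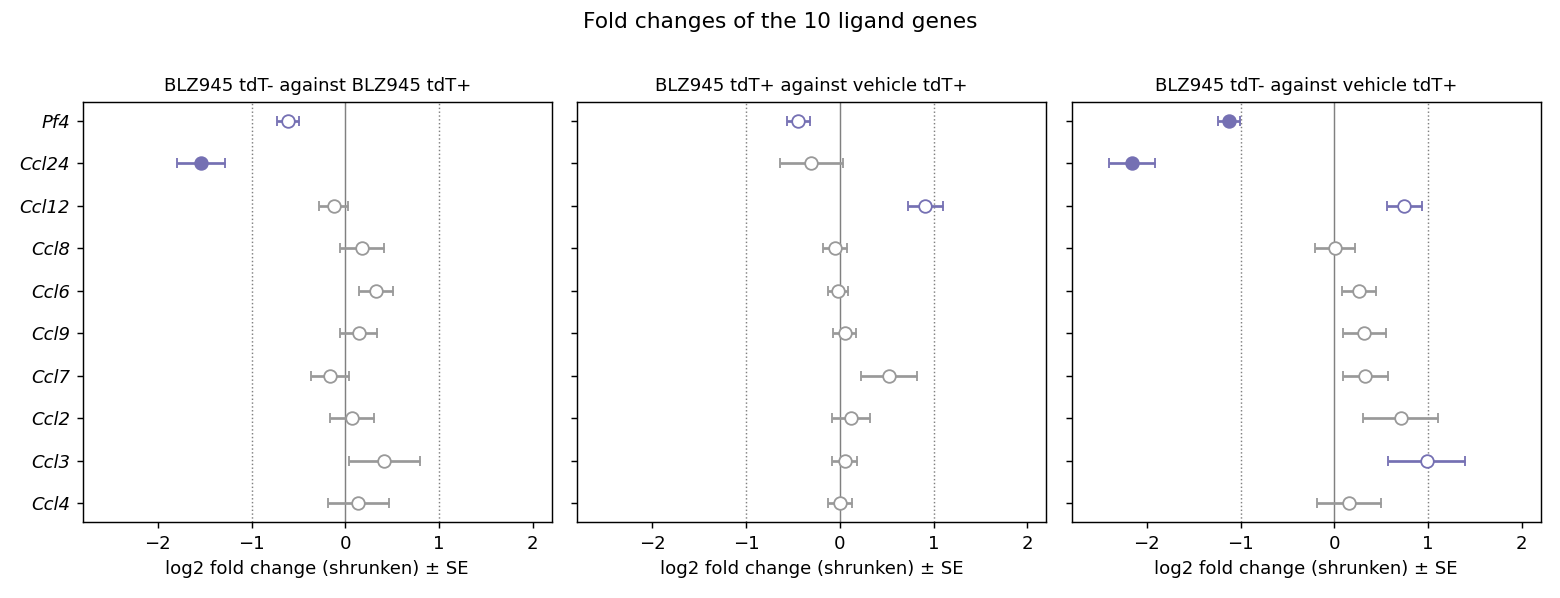
Shrunken log2 fold changes (x axis, whiskers are SE) of the 10 ligand genes (y axis) in the 3 comparisons, from the DESeq2 fit over 12 libraries. Violet marks an adjusted p of 0.05 or lower, filled symbols mark calls and dotted lines a log2 fold change of 1 in size, and the called points are Ccl24 and Pf4 against vehicle and Ccl24 between the gates.

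The remaining CCR2 ligands, Ccl2 and Ccl7, varied together. Ccl2 was at 945, 1220, 843 and 1951 normalised counts in vehicle libraries, at 1608, 2382, 2663 and 1905 in BLZ945 tdT+ libraries and at 1752, 1867, 1508 and 4548 in tdT- libraries. Ccl7 was at 2829, 3347, 2596 and 4434 in vehicle libraries, at 4497, 5216, 6454 and 5763 in BLZ945 tdT+ libraries and at 3877, 3517, 3488 and 7383 in tdT- libraries. The library labelled M2 was the highest for both genes in the vehicle and in the tdT- group, which are different mice. Over the 12 libraries Pearson's r of their log2 levels was 0.92 and Spearman's rho 0.92, and r was 0.96 after subtracting the group means, which describes libraries that share depth and processing. The ratio of Ccl7 to Ccl2 counts ranged over 1.90-fold, whereas Ccl7 ranged over 2.84-fold and Ccl2 over 5.39-fold. Ccl12 followed Ccl7 with r = 0.81, or 0.64 within groups. Pf4 and Ccl24 had r = 0.92 over the libraries and 0.29 within groups, so that most of their joint variation lay between groups.

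**Figure D4:**
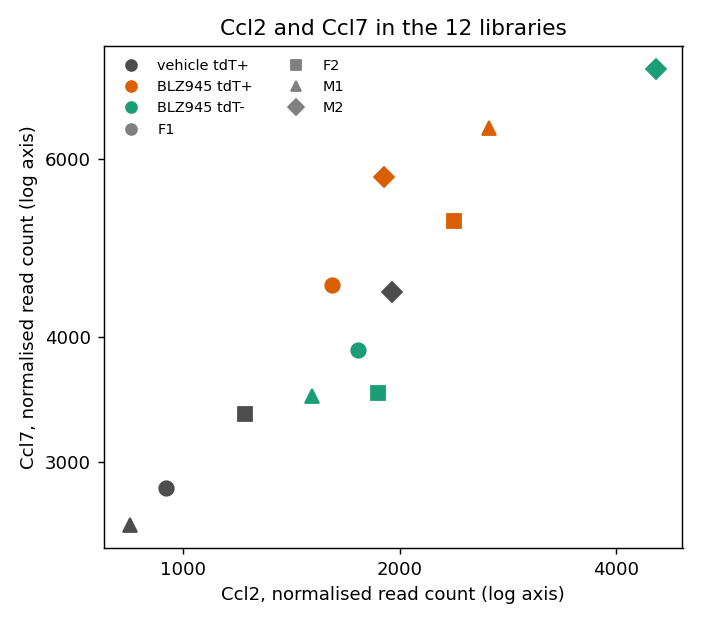
Normalised read counts of Ccl2 (x axis, log scale) and Ccl7 (y axis, log scale) in the 12 libraries, coloured by group with 1 symbol per mouse label. Libraries with more Ccl2 mostly have more Ccl7, and the tdT- library of mouse M2 is the highest for both, at 4548 and 7383.

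Neither gene passed the test in any comparison of the main fit. Ccl2 changed by 0.71 ± 0.40 in tdT- cells against vehicle (adjusted p = 0.0883). It passed without vehicle M2 (1.05, adjusted p = 0.0122) and without tdT- M1 (0.89, adjusted p = 0.0386). It also passed with the mouse label as a block (0.80, adjusted p = 0.00120), but not on the same 8 libraries without the block. In this comparison the block pairs different mice that share a label only. Without the tdT- library M2, Ccl7 passed as lower in tdT- than in BLZ945 tdT+ cells (-0.51, adjusted p = 0.0390).

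Ccl3 and Ccl4, closely related inflammatory chemokines, were the least abundant. Ccl3 was at 247, 189, 120 and 209 normalised counts in vehicle libraries, at 305, 265, 268 and 219 in BLZ945 tdT+ libraries and at 700, 387, 408 and 292 in tdT- libraries. All tdT- libraries were above all vehicle libraries, and the BLZ945 tdT+ libraries overlapped both groups. Between the gates of BLZ945 mice Ccl3 did not pass (0.42 ± 0.38, adjusted p = 0.283). Ccl3 rose by 0.99 ± 0.41 in tdT- cells against vehicle (adjusted p = 0.0212), just under the fold change needed for a call, and still passed without tdT- F2 (adjusted p = 0.0323). It no longer passed with edgeR (adjusted p = 0.136), with the mouse label as a block (0.75, adjusted p = 0.105), on the 8 libraries compared (0.86, adjusted p = 0.0836), or without vehicle F2 (0.88), vehicle M1 (0.75) or tdT- F1 (0.65). The microglia markers were higher in the same tdT- libraries, and their part in the level of Ccl3 was not tested. The values of Ccl4 were 148, 422, 145 and 23.4 in vehicle libraries, 193, 231, 11.3 and 287 in BLZ945 tdT+ libraries and 394, 177, 561 and 535 in tdT- libraries. Its groups overlapped in all comparisons, and its level spanned 49.7-fold over the 12 libraries, the widest of these 10 genes. Ccl4 changed by 0.15 ± 0.34 in tdT- cells against vehicle after shrinkage and by 1.18 ± 0.84 before it (adjusted p = 0.567).

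The CCR1 ligands Ccl6 and Ccl9 and the CCR8 ligand Ccl8 did not pass in any comparison of the main fit. Ccl6 was at 6778, 8341, 6277 and 8790 normalised counts in vehicle libraries, at 7942, 8850, 6920 and 5037 in BLZ945 tdT+ libraries and at 9638, 9229, 12063 and 7347 in tdT- libraries. It was higher in tdT- than in tdT+ cells of all 4 BLZ945 mice, by 0.33 ± 0.18 (adjusted p = 0.223). Ccl9 was at 3298, 3474, 2996 and 4275 in vehicle libraries, at 3815, 4585, 4657 and 3290 in BLZ945 tdT+ libraries and at 5058, 6534, 5197 and 2422 in tdT- libraries. The tdT- library M2 was the lowest of all 12 for Ccl9, and without it Ccl9 passed as higher in tdT- cells than in vehicle (0.59, adjusted p = 0.00449). Ccl8 was at 5458, 4411, 9685 and 11132 in vehicle libraries, at 7009, 4196, 6387 and 6966 in BLZ945 tdT+ libraries and at 7273, 4682, 6902 and 12138 in tdT- libraries. The groups of Ccl8 overlapped widely, and its changes were -0.05 ± 0.13 in tdT+ and 0.01 ± 0.22 in tdT- cells against vehicle (the adjusted p of the latter was 0.996). Ccl8 was higher in tdT- than in tdT+ cells of all 4 BLZ945 mice, by 0.17 ± 0.24 (adjusted p = 0.725).

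Differences between mice labelled F and M in these effects were tested as an interaction in edgeR, with 2 mice of each letter per group. No gene of 13724 passed in any of the 3 comparisons, while 984, 449 and 1103 genes had an unadjusted p of 0.05 or lower. The lowest unadjusted p of a member was 0.0980, for Ccl8 in tdT+ cells against vehicle.

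The receptors of these ligands were measured in the same libraries. Of 23 chemokine receptors listed, 9 passed the filter. In tdT- against BLZ945 tdT+ cells 4 rose and 2 fell on the adjusted p. Among them Ccr2, the receptor of Ccl2, Ccl7 and Ccl12, rose by 2.32 ± 0.40 (adjusted p = 2.19e-08), from a mean of 1214 to 6651 normalised counts. Cx3cr1, the fractalkine receptor of microglia and of many macrophages, rose by 0.82 ± 0.16. Ccr1, the receptor of Ccl3, Ccl6 and Ccl9, fell by 0.61 ± 0.19 (adjusted p = 0.00669), from 13875 to 8574 normalised counts, and Cxcr3 fell by 0.67 ± 0.24. In edgeR the adjusted p was 0.00691 for Ccr2 and 0.0118 for Cx3cr1, whereas Ccr1 (0.0732) and Cxcr3 (0.0691) did not pass. The tdT- libraries held 3076 to 12013 normalised counts of Ccr2, highest in F2, and all lay above the highest BLZ945 tdT+ library (1981). Without F2, Ccr2 (1.86), Cx3cr1 (0.93) and Ccr1 (-0.65) still passed and Cxcr3 did not (-0.56, adjusted p = 0.0578). Ccr2 also belongs to the monocyte marker list, of which 2 of the 5 tested genes passed as higher in this comparison. Ccr7 also passed as higher, named after its values were seen, with 0 counts in all BLZ945 tdT+ libraries and a shrunken change of 0.02 ± 0.29, and edgeR did not pass it (adjusted p = 0.155). Against vehicle, Ccr2 (1.03 ± 0.42) and Ccrl2 (1.07 ± 0.52) were among those called higher in tdT- cells, Cx3cr1 also rose and Cxcr3 fell by 0.79 ± 0.24, of which edgeR passed Cxcr3 but not Ccr2 (0.154), Ccrl2 (0.139) or Cx3cr1 (0.0807). Without F2 the calls of Ccr2 (0.53, adjusted p = 0.186) and Ccrl2 (0.89, adjusted p = 0.0842) were lost, and Cx3cr1 and Cxcr3 still passed. In BLZ945 tdT+ cells against vehicle, Ccr7 alone passed, as lower, with a shrunken change of 0.00 and an edgeR adjusted p of 0.708. Ccr2 then had a change of -0.84 ± 0.49 (adjusted p = 0.12). Ccr8 was at 0 in all libraries.

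The other chemokine ligands were mostly low. Of 29 further ligand genes, 16 passed the filter and none was called in any comparison. Cxcl16, a membrane-bound ligand of CXCR6, rose in tdT- cells by 0.40 ± 0.13 against BLZ945 tdT+ cells (adjusted p = 0.0148) and by 0.38 ± 0.13 against vehicle (adjusted p = 0.0236), and passed neither time in edgeR (0.106 and 0.135). Without F2 these changes were 0.50 and 0.48, and both passed. Ccl17, named after its values were seen, passed against vehicle (adjusted p = 0.0420) with a shrunken change of 0.06 ± 0.32, and its tdT- libraries reached from 0 to 668 normalised counts with the highest value in F2, without which it did not pass (adjusted p = 0.352). Without F2, Cxcl2 passed as lower in tdT- cells, with shrunken changes of -0.09 and -0.10 against BLZ945 tdT+ and vehicle cells. Its tdT- library F2 had 226 normalised counts and the other 3 had 0. With F2 kept, Cxcl2 did not pass (adjusted p = 0.987 and 0.873). The interferon-inducible ligand Cxcl9 had means of 755 in vehicle, 494 in BLZ945 tdT+ and 256 in BLZ945 tdT- cells and a change of -0.99 ± 0.76 in tdT- cells against vehicle (adjusted p = 0.0858). In tdT+ cells against vehicle 0 of the 16 passed, where the lowest adjusted p among those whose mean normalised count was 100 or more was 0.755, for Ccl5.

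Several ligand genes are inducible, so 20 immediate early and stress-inducible genes were read beside them, all of which passed the filter. In BLZ945 tdT+ cells against vehicle 4 of the 20 rose, all with a call, namely Fos (2.34 ± 0.31), Dusp1 (2.29 ± 0.34), Jun (1.61 ± 0.17) and Zfp36 (1.48 ± 0.14). In tdT- cells against vehicle 7 rose and 6 were called, these 4 together with Junb (1.37 ± 0.24) and Il1b (1.44 ± 0.67). Between the gates of BLZ945 mice only Junb passed, as higher in tdT- cells by 0.78 ± 0.24. In edgeR, Il1b (0.126) and the latter change of Junb (0.0565) did not pass, and the other calls did. Thus, in the comparisons with vehicle in which Ccl12 was higher, 4 of the 20 genes also passed as higher in tdT+ cells and 7 in tdT- cells. Of all genes, 0.955% and 6.76% passed in either direction. In tdT- cells 7 passed as higher without F2 too. Mitochondrial counts differed as well, with 0.702 to 1.13% of counts in vehicle, 0.515 to 0.589% in BLZ945 tdT+ and 0.324 to 0.631% in tdT- libraries. The part of either in the level of Ccl12, Ccl7 or Pf4 was not tested.

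Among 9300 genes whose mean normalised count was 100 or more, those most like each member over the 12 libraries were found by Pearson's r of log2 levels. Pf4 was most like Fpr1 (r = 0.96), Slc14a1 (0.95) and Ednrb (0.94). Ccl24 was most like Mfsd11 (0.97), Cyp27a1 (0.97) and Cd209g (0.97). For Ccl12 these genes were Riok1 (0.89), Zfp65 (0.87) and Hspa5 (0.86), for Ccl2 Ccdc86 (0.86), Mavs (0.85) and Snrnp40 (0.84), and for Ccl7 Rab5a (0.88), Ccdc86 (0.86) and Rpn1 (0.86). Ccl3 was most like Rogdi (0.90) and Cnih4 (0.90), and Ccl4 like Slc39a4 (0.94), Ecsit (0.92) and Malt1 (0.91). For Ccl6 they were Senp8 (0.92), Nt5c3b (0.91) and Lrrfip1 (0.88), for Ccl8 Siah2 (0.85), Sephs1 (0.82) and Ttc5 (0.82), and for Ccl9 Adprm (0.93), Armc6 (0.83) and Taldo1 (0.83). The values were picked as the highest of many and describe these libraries, which share depth and group structure.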

How the data were processed

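CD206+ sdCAMs of 12 libraries in 3 groups of 4 were sequenced, from about 500 pg of RNA each, with a SMART-Seq protocol that amplifies cDNA, so counts are not independent molecules and floors cover counting error only. Per the file headers, the authors counted reads with featureCounts 2.0.6 on the exons of a filtered GENCODE M33 annotation, without strand and without multi-mapping reads. Per the labels, the authors aligned with STAR 2.7.11a. The deposited values are raw counts per gene, with no pooling, and the deposited gene lengths are merged exon bases. A vehicle column named M1, but numbered as the library of M2, was assigned by number.

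Genes were dropped in R 4.3.3 when 75% or more of the libraries (9 of 12) had under 10 counts, and the rest were compared by the two-sided Wald test of DESeq2 1.42.0 (group as the only term, all libraries), with apeglm 1.24.0 shrinkage and Benjamini-Hochberg adjustment over all genes tested. Calls needed an adjusted p of 0.05 or lower together with a log2 fold change of 1 or more in either direction. Levels for correlations were log2(normalised count + 1). edgeR 4.0.16 was the alternative test. The steps were tested on simulated data. The 10 genes, the lists and the tests were chosen with earlier results of these data known. All members are named, with the called genes of the other lists or else up to 4 with the lowest adjusted p, and the 3 genes most like each member. Some genes that this rule takes are not reported here. The tdT+ and tdT- libraries of a BLZ945 mouse are paired by the mouse label, and a fit with that label as a block was an alternative. Across genes, deviations of same-label libraries from their group means correlated between -0.0182 and 0.0484 over the 3 comparisons. No 2 replicates agreed within sampling noise, the lowest chi-square per degree of freedom being 49.7.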

Additional observations from a re-analysis of the deposited data

Results flagged for a closer look

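In 36 groups of 4 libraries (the 10 members, their summed TPM and the total count, in 3 groups each), 3 had a library far from the other 3 by Dixon's ratio, where chance flags about 1 group in 20. Ccl2 had 4548 normalised counts in the tdT- library M2, against 1867 in the next highest. Ccl7 had 7383 in the same library, against 3877 in the next. Ccl24 had 5054 in the BLZ945 tdT+ library M1, against 3577 in the next.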

How the results depend on the processing

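The 10 members were refitted under 15 alternatives in each comparison, which gave 450 values. Of these, 421 kept their direction and their side of an adjusted p of 0.05, 8 no longer passed, 10 newly passed and 11 changed sign, none of which passed. Pf4 and Ccl24 passed in all 15 in both comparisons of tdT- cells, and Ccl12 in all 15 in tdT- cells against vehicle and in 14 in tdT+ cells against vehicle. With the adjusted p alone, 2 members passed in tdT- against BLZ945 tdT+ cells, 2 in tdT+ cells against vehicle and 4 in tdT- cells against vehicle. In tdT+ cells against vehicle this count of 2 became 0 with edgeR, 4 with the mouse label as a replicate block and 4 with only the 8 libraries compared. With the block, which also used only those 8 libraries, Ccl7 (0.66, adjusted p = 0.00321) and Ccl24 (-0.55, adjusted p = 0.00636) passed in that comparison, and in tdT- cells against vehicle Ccl2 passed (0.80, adjusted p = 0.00120) and Ccl3 did not (0.75, adjusted p = 0.105). Ccl7, Ccl24 and Ccl3 crossed the threshold on the 8 libraries without the block too, and Ccl2 did not. No other member changed its call with the block. In the comparisons against vehicle the block pairs different mice that share a label only. The list genes were refitted without the tdT- library F2, an alternative chosen after seeing the data. Signs changed for Ccl2 in tdT- against BLZ945 tdT+ cells (-0.18 without tdT- M2, and at most 0.15 without any other library), for Ccl4 in tdT+ cells against vehicle (0.0012 with the letter F or M as covariate, 0.0087 without tdT+ M1, and from -0.0073 to 0.0201 over all left-out libraries, the highest without vehicle F2), for Ccl6 there (0.0023 without vehicle M2, and from -0.0597 to 0.0221 over all left-out libraries, the highest without tdT+ M2) and for Ccl8 in tdT- cells against vehicle (-0.0169 with edgeR, -0.0067 with TMM factors, and -0.06, -0.09 and -0.17 without vehicle F1, vehicle F2 and tdT- M2, up to 0.13 without vehicle M2). The cause was not tested. Over all genes, the 309 calls in tdT- against BLZ945 tdT+ cells became 487 with unshrunken fold changes, and the 875 genes on the adjusted p became 377 with edgeR. In tdT+ cells against vehicle the 23 calls became 7 with edgeR, 46 without the filter, 67 unshrunken, 58 with the block and 54 with 8 libraries, and the 131 genes on the adjusted p became 9 with edgeR, 256 without the filter, 389 with the block and 325 with 8 libraries. In tdT- cells against vehicle 350 became 544 unshrunken, and 928 became 446 with edgeR. With 4 libraries per group, Ccl4, which spanned 49.7-fold, could not be resolved.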
